A study of Danio rerio with 4 samples.

Results

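The cytosolic ribosomal protein genes were taken as every row of the expression table whose symbol begins with rpl or rps followed by a digit, a p or an a (rpl3, rplp0, rpsa), without the rps6k kinases. There were 82 such rows of 31953 genes. The ribosome is built from a small subunit, which reads the mRNA, and a large subunit, which joins amino acids, and these genes encode the proteins of both in the cytosol. Their mRNAs share a pyrimidine tract at the 5′ end that places their translation under the control of the Tor kinase, so that an RNA level is not a measure of protein made. Neural crest cells, which form most of the facial skeleton, are known to be sensitive to defects of ribosome production.

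RNA was measured in zebrafish (Danio rerio) pharyngeal arch cells, sorted as positive for both fli1a:GFP (arch neural crest and vessels) and sox10:DsRed (neural crest lineage) at the 36 hours post-fertilization (hpf) stage, in 4 libraries of pooled embryos. Embryos mutant for nr2f2 and nr2f5, orphan nuclear receptor genes, gave 2 libraries, called mutant 1 and mutant 2, from 37 and 84 embryos (18858 and 30655 cells, not assigned to a replicate), and were picked by ocular coloboma. The library labelled UAS:Nr2f5 came from embryos that carry both that transgene and sox10:Gal4, a neural crest driver meant to switch it on. It was 1 library from 84 embryos (56866 cells). Embryos with sox10:Gal4 alone gave 1 control library from 69 embryos (86517 cells). Both of these groups were genotyped from fin biopsies at 24 hpf. Neither the driver nor a biopsy is given for the mutants, so an effect of either cannot be told apart from one of the mutated genes. Values are in RPM, or reads per 1000000 sequenced, which is an assumed scale. They are not divided by gene length, so levels are compared between libraries and not between genes.

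The mutated gene nr2f5 stood at 12.2 and 14.7 RPM in the mutants, 30.3 RPM in the library labelled UAS:Nr2f5 and 28.8 RPM in the control, and nr2f2 at 38.9 and 30.9 RPM in the mutants, 28.1 RPM in the library labelled UAS:Nr2f5 and 41.4 RPM in the control. A gain of nr2f5 is therefore not seen in the library labelled UAS:Nr2f5, and each direction drawn from that library rests on its label. All 12 arch neural crest markers looked at were above 0 in every library, and their summed level was 406 and 386 RPM in the mutants, 159 RPM in the library labelled UAS:Nr2f5 and 260 RPM in the control. The marker foxd3 did not follow this order, at 2.09 and 2.76 RPM in the mutants, 2.67 RPM in the library labelled UAS:Nr2f5 and 0.570 RPM in the control. For tfap2a the control lay between the mutants, with 24.8 and 33.4 RPM in the mutants, 22.8 RPM in the library labelled UAS:Nr2f5 and 25.8 RPM in the control. At the assumed scale the libraries held 10127921 reads (UAS:Nr2f5) to 34787209 reads (mutant 1). Only a part of these fell on genes. The gene values summed to 151959 and 158345 RPM in the mutants, 147940 RPM in the library labelled UAS:Nr2f5 and 149189 RPM in the control.

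The gene symbols were checked against a table of gene names, which matched all 82 identifiers. That table names the second of the rows called rpl37 (ENSDARG00000076360) as COA1, a mitochondrial assembly factor, and the second of the rows called rps27.2 (ENSDARG00000100513) as rps27l. The row rps19bp1 encodes a protein that binds Rps19 and is not a part of the ribosome. Without COA1 and rps19bp1 there were 45 rows of the large subunit and 35 of the small subunit. Subunits were assigned by name, so rpl7l1, whose counterpart in yeast acts in ribosome assembly, is counted with the large subunit. Of the 82 rows, 80 averaged 1 RPM or more across the 4 libraries and were tested. The other rows were rps8b, listed at 0 in every library but mutant 1 (0.0862 RPM, 3 reads), and rps27l, at 0.661 and 1.85 RPM in the mutants, 0.197 RPM in the library labelled UAS:Nr2f5 and 0.601 RPM in the control.

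As a group, ribosomal protein genes took up a slightly larger share of the reads in the mutants than in the other libraries. The 82 rows made up 7.80% and 8.09% of all gene values in the mutants (7.95% ± 0.202, SD, n = 2), 6.86% in the library labelled UAS:Nr2f5 and 7.23% in the control. The mutant mean was 1.099 times the control's share and 1.16 times that of the library labelled UAS:Nr2f5, whose share was 0.949 times the control's. Both mutants lay above both other libraries, but with 2 libraries against 1 the exact two-sided permutation test of the share gave p = 0.333 for the mutants against the control, the smallest that the 3 possible labellings allow.

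**Figure D1:**
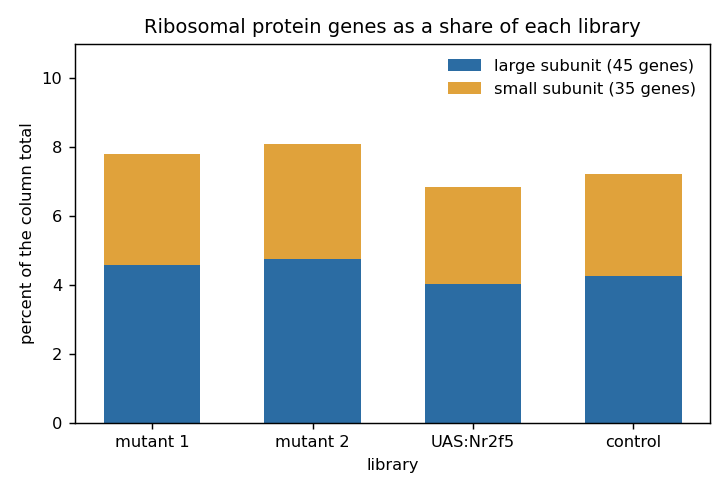
Summed values of the large subunit (45 genes, blue) and small subunit (35 genes, orange) genes as a percent of all gene values in each of the 4 libraries. The mutants reach 7.80% and 8.09%, the UAS:Nr2f5 library 6.86% and the control 7.23%, counted over all 82 rows, and the split between the subunits is nearly the same in every bar.

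The balance between the subunits hardly differed. Large subunit genes held 58.8% of the ribosomal protein reads in mutant 1 (exact 95% counting interval 58.6 to 58.9), 58.7% in mutant 2 (58.6 to 58.9), 58.9% in the library labelled UAS:Nr2f5 (58.6 to 59.2) and 58.8% in the control (58.6 to 59.0). The 4 percentages span 0.128 percentage points, and all 4 intervals overlap. Such intervals cover counting error only, since reads amplified by PCR are not independent molecules.

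Markers of cell types other than arch crest differed between these libraries. In bulk RNA, fewer cells of a type and less RNA per cell cannot be told apart. The summed level of 12 muscle genes was 44.6 and 63.7 RPM in the mutants, 5050 RPM in the library labelled UAS:Nr2f5 and 1513 RPM in the control. Against the control, 11 of the 12 fell in the mutants (1.01% of all genes) by limma's test, which is described with the next comparison. The 10 epidermal genes summed to 206 and 164 RPM in the mutants, 2105 RPM in the library labelled UAS:Nr2f5 and 753 RPM in the control, with krt4 and krt5 fallen against the control. Of these 10, krt8 went the other way and was the largest part of the mutant sums. It was at 131 and 129 RPM in the mutants, 89.0 RPM in the library labelled UAS:Nr2f5 and 98.7 RPM in the control. The 9 rows of red blood cell genes summed to 118 and 53.2 RPM in the mutants, 395 RPM in the library labelled UAS:Nr2f5 and 476 RPM in the control. With these 3 lists taken out of the total, the ribosomal protein share was 7.82% and 8.10% in the mutants, 7.23% in the library labelled UAS:Nr2f5 and 7.37% in the control. Beyond this arithmetic, the part of other cell types in the values below was not tested.

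The first comparison, of the mutants with the control, bears on loss of the Nr2f receptors. Most ribosomal protein genes were a little higher in the mutants than in the control, 0 of 80 were 2-fold apart (7.75% of all genes), and 0 passed the test. The median of the 80 tested rows was 0.20 on the log2(RPM + 1) scale, a factor of 1.14, with an interquartile range of 0.11 to 0.30. It was 0.14 for mutant 1 and 0.25 for mutant 2, and the median of all 11391 genes tested was 0.03. In both mutants 61 of the 80 rows lay above the control, where 39.1% of all genes did, and 3 lay below it in both (33.2% of all genes), namely rpl5a, rps27.1 and rps19bp1. For the other 16 the control lay between the mutants (27.7% of all genes), and it was the lowest of the 4 libraries for 22 rows (16.6% of all genes). limma, fitted to all 4 libraries and adjusted over all genes, called 0 of the 80, beside 1.04% of all genes, of which 0.0263% rose and 1.01% fell. At an unadjusted p under 0.05 there were 8, beside 13.2% of all genes. Its variance estimate, moderated across genes, has the difference between the mutants as its only source (1 residual degree of freedom), so the unreplicated libraries are assumed to vary to the same extent.

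**Figure D2:**
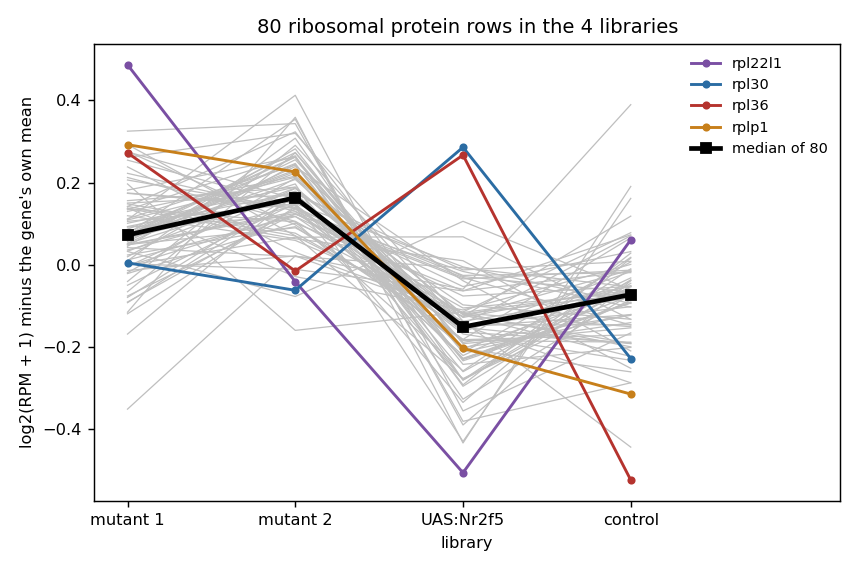
Each grey or coloured line is 1 of the 80 tested rows, drawn as log2(RPM + 1) minus its own mean over the 4 libraries, and the black line is the median of the rows. The median is highest in mutant 2 and lowest in the UAS:Nr2f5 library. Of the coloured genes, rpl36 departs from it most in the UAS:Nr2f5 library and the control, and rpl22l1 in mutant 1 and the UAS:Nr2f5 library. The gene rpl30 departs most in the UAS:Nr2f5 library, while rplp1 is high in both mutants.

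Large subunit genes led the upper end of this comparison. The stalk protein gene rplp1, which helps to recruit elongation factors, was at 200 and 191 RPM in the mutants, against 131 RPM in the control. Both mutants are close together and well above the control, and the log2 difference was 0.57 ± 0.18 (SE, limma adjusted p = 0.230, the lowest of the group). rpl36a was at 11.9 and 12.4 RPM in the mutants, against 6.91 RPM in the control (0.73 ± 0.23, limma adjusted p = 0.235). rpl36, another large subunit protein gene, was at 24.98 and 20.3 RPM in the mutants, against 14.0 RPM in the control (0.65 ± 0.21, limma adjusted p = 0.244).

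rpl34 was at 76.8 and 70.9 RPM in the mutants, against 51.7 RPM in the control, and rpl39, whose protein sits in the exit tunnel of the nascent chain, at 56.3 and 52.2 RPM in the mutants, against 39.9 RPM in the control. rpl22, an RNA-binding protein gene of the large subunit, was at 35.4 and 40.3 RPM in the mutants, against 26.6 RPM in the control. These 3 genes were named for their large differences, so that both mutants lying above the control, as in 39.1% of all genes, adds nothing further. Their limma adjusted p was 0.261, 0.350 and 0.318. rpl38, which in the mouse is needed for translation of Hox mRNAs, was at 18.1 and 20.7 RPM in the mutants, against 14.4 RPM in the control (limma adjusted p = 0.486).

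Among small subunit genes, rps28 was at 19.3 and 19.6 RPM in the mutants, against 12.3 RPM in the control (0.62 ± 0.20, limma adjusted p = 0.240). rps26, beside the mRNA exit, was at 38.2 and 40.5 RPM in the mutants, against 29.1 RPM in the control. At the lower end, rps27.1 was at 102 and 101 RPM in the mutants, against 107 RPM in the control, and rpl5a at 108 and 110 RPM in the mutants, against 118 RPM in the control. rps19bp1, which is not part of the ribosome, gave the lowest difference, with 2.16 and 3.09 RPM in the mutants, against 4.27 RPM in the control (limma adjusted p = 0.626).

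The genes with the most reads showed the same narrow range. rps2, of the small subunit, was at 679 and 810 RPM in the mutants, against 686 RPM in the control, so that the control lies between the mutants. rplp0, the base of the stalk, was at 671 and 771 RPM in the mutants, against 593 RPM in the control, and rpl3, at the peptidyl transferase centre, at 529 and 591 RPM in the mutants, against 481 RPM in the control. rpl4 was at 458 and 487 RPM in the mutants, against 424 RPM in the control, and rpsa, related to the laminin receptor, at 349 and 429 RPM in the mutants, against 338 RPM in the control.

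Of the other genes of this kind, rpl7a was at 331 and 350 RPM in the mutants, against 297 RPM in the control, and rps6, the target of S6 kinase, at 257 and 296 RPM in the mutants, against 220 RPM in the control. rps3a was at 299.97 and 285 RPM in the mutants, against 257 RPM in the control, and rps8a at 265 and 296 RPM in the mutants, against 239 RPM in the control. rps3, at the mRNA entry, was at 259 and 267 RPM in the mutants, against 248 RPM in the control. Apart from rps2, each of the 10 genes with the highest mean lay above the control in both mutants, beside 76.2% of the 80 rows and 39.1% of all genes. For these 10 genes limma adjusted p was between 0.592 (rps6) and 0.918 (rps2).

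The subunits did not separate in this comparison. The median difference was 0.20 for 45 large subunit genes and 0.20 for 33 small subunit genes, with 41 and 29 of them higher in the mutants on average. Of all 11391 genes tested, 6122 were higher. When the 80 rows were split by their mean value into 3 sets of 26 or 27, the spread of the differences over genes was 0.26 (SD) in the low set, 0.15 in the middle set and 0.12 in the high set, around medians of 0.25, 0.17 and 0.19.

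**Figure D3:**
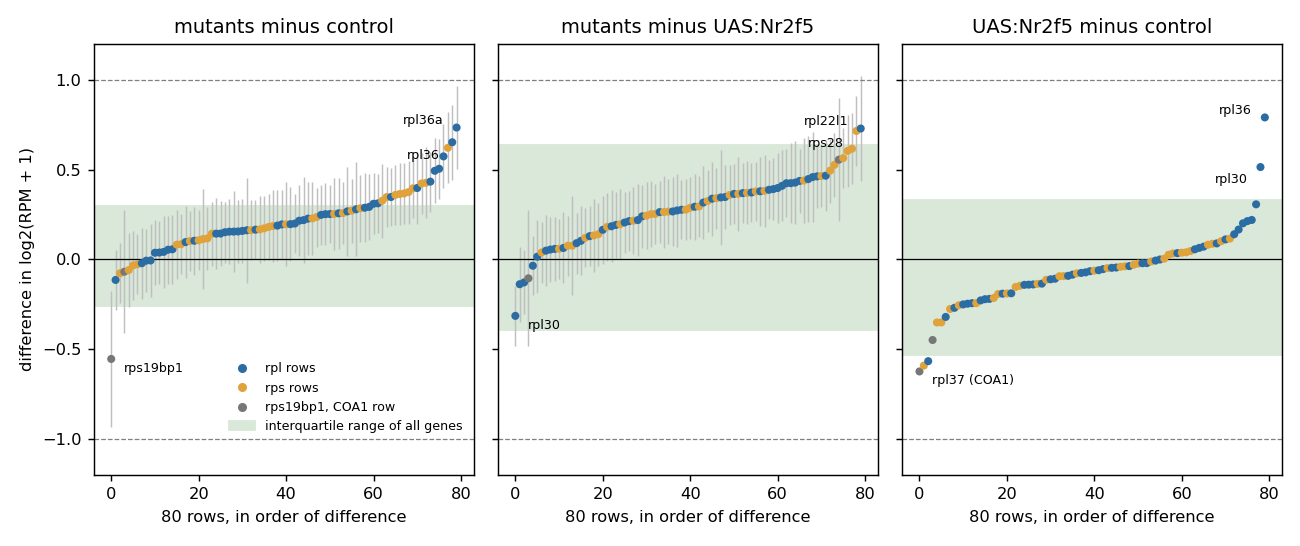
Differences in log2(RPM + 1) for the 80 tested rows, sorted within each panel, for the mutants minus the control, the mutants minus the UAS:Nr2f5 library and the UAS:Nr2f5 library minus the control, with limma standard errors as bars where the mutant pair gives one. The green band is the interquartile range of all genes tested and dashed lines mark 2-fold. No row reaches them, and rpl36 and rpl30 stand above the rest in the right panel.

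The comparison of the mutants with the library labelled UAS:Nr2f5 sets loss against intended gain. Ribosomal protein genes were higher in the mutants here too, by a median of 0.28, a factor of 1.22, where the median of all genes was 0.17. Relative to all genes the median was 0.11 higher, but once rows averaging under 5 RPM were left out this excess was gone, with medians of 0.28 for 78 ribosomal protein rows and 0.29 for all 5294 genes. In both mutants 68 of the 80 rows lay above the library labelled UAS:Nr2f5 (50.7% of all genes), and 3 lay below it in both (33.5% of all genes). limma called 0 of the 80, in a comparison in which it called 20.1% of all genes (11.2% rose and 8.92% fell), and 0 were 2-fold apart (24.4% of all genes), and at an unadjusted p under 0.05 there were 9 (37.4% of all genes). With the same rows left out, 7 of 78 rows rose by limma (8.97%), well under the 27.6% of all genes that rose at that setting. They included rps28, rps9, rpl22l1 and rps4x. At that setting limma replaced each gene's own variance with the level shared by genes of similar value, so its calls do not compare directly with those of the main fit.

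Apart from rpl22l1 and the COA1 row, small subunit genes led this comparison. rps28 was at 19.3 and 19.6 RPM in the mutants, against 11.5 RPM in the library labelled UAS:Nr2f5, a log2 difference of 0.72 with limma adjusted p = 0.0524. rps9, which helps to set decoding accuracy, was at 165 and 201 RPM in the mutants, against 119 RPM in that library (0.60, limma adjusted p = 0.0845). The 33 small subunit genes were all higher in the mutants on average, with a median of 0.29, and so were 41 of 45 large subunit genes, with a median of 0.28. Of all 11391 genes tested, 6707 were higher, with a median of 0.17.

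rps4x was at 149 and 163 RPM in the mutants, against 108 RPM in the library labelled UAS:Nr2f5 (0.53, limma adjusted p = 0.0874). The large subunit genes rpl30 and rpl11 ran the other way, and rpl37 hardly differed (limma adjusted p = 0.219, 0.635 and 0.898). rpl30 was at 83.5 and 79.7 RPM in the mutants, against 102 RPM in the library labelled UAS:Nr2f5, rpl11 at 147 and 136 RPM in the mutants, against 155 RPM in that library, and rpl37 (ENSDARG00000034291) at 86.6 and 90.9 RPM in the mutants, against 90.9 RPM in that library. In these genes the library labelled UAS:Nr2f5 was the highest of the 4, as in 28.2% of all genes. Rpl11 is known, with Rpl5, to bind Mdm2 when ribosome assembly is disturbed.

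UAS:Nr2f5 against the control is meant to bear on added Nr2f5, a gain that the nr2f5 RNA did not show. It has 1 library on each side, so that no p-value is given. The median row was 0.06 lower on the log2(RPM + 1) scale, but this sign turned with the scaling. All genes had a median of −0.11, relative to which the ribosomal protein genes were 0.05 higher, and a median-ratio scaling moved their median to 0.07 and a TMM scaling to 0.00. Of the 80 rows, 56 were lower in the library labelled UAS:Nr2f5 (57.6% of all genes) and 24 higher (42.4% of all genes), and 0 were 2-fold apart, where 16% of all genes were. The counting interval of the ratio to the control lay below 1 for 37 rows and above 1 for 7. No share over all genes is given for counts by interval, and intervals are narrow for rows with many reads. Between the mutant replicates it excluded 1 for 60 of the 80, so that for most rows these intervals are narrower than the difference between libraries of the same group.

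Single genes departed from the group in this comparison. rpl36 was at 24.9 RPM in the library labelled UAS:Nr2f5 and 14.0 RPM in the control, a ratio of 1.78 (95% counting interval 1.52 to 2.09) and the mutants were at 24.98 and 20.3 RPM. rpl30, which in yeast is known to limit its own splicing, was at 102 RPM in the library labelled UAS:Nr2f5 against 70.9 RPM in the control, a ratio of 1.43 (1.33 to 1.55). rpl36a was at 8.79 RPM in that library against 6.91 RPM in the control (ratio 1.27, 0.980 to 1.64). rpl32 was at 112 RPM in that library against 96.0 RPM in the control (1.17, 1.09 to 1.25).

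Among the lowest in the library labelled UAS:Nr2f5, rpl22l1 was at 6.91 RPM there against 10.7 RPM in the control, a ratio of 0.645 (0.491 to 0.837), and rps9 at 119 RPM in that library against 153 RPM in the control (0.782, 0.734 to 0.834). rpl18 was at 108 RPM in that library against 135 RPM in the control (0.799, 0.747 to 0.855). The COA1 row had the lowest log2 difference, with 5 reads in that library.

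The replicate spread sets the scale for these values. Between mutant 2 and mutant 1 the median of the absolute differences was 0.13 over the 80 rows and 0.26 over all genes tested. Of the 80, 56 were higher in mutant 2, a count for which no share over all genes is given. The widest gap was in rpl22l1, at 14.7 RPM in mutant 1 and 9.92 RPM in mutant 2. Both mutants lay above both other libraries for 57 of the 80 rows, against 28.7% of all genes, and the library labelled UAS:Nr2f5 was the lowest of the 4 for 50 rows, against 44.4% of all genes.

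Several ribosomal proteins are encoded by a pair of gene copies, whose split can differ even where the sum does not. How reads that match both copies were assigned is not given in the sources used here, so each split is uncertain. rpl5b held 60.9% and 61.0% of the reads of rpl5a and rpl5b in the mutants, 57.3% in the library labelled UAS:Nr2f5 and 56.4% in the control. The mutants agree within counting error and lie above both other libraries. rpl22l1, whose mouse counterpart is held down by Rpl22, took 29.4% and 19.8% of its pair with rpl22 in the mutants, 20% (15.9 to 24.6) in the library labelled UAS:Nr2f5 and 28.8% in the control. Here the mutant replicates differ by as much as any pair of libraries.

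The other pairs gave the following shares. rps26l held 51.5% and 49.6% of its pair with rps26 in the mutants, 52.1% in the library labelled UAS:Nr2f5 and 56.3% in the control, where it was highest. rplp2l held 70.4% and 65.6% of its pair with rplp2 in the mutants, 66.3% in the library labelled UAS:Nr2f5 and 67.7% in the control. rps27.2 (ENSDARG00000055475) held 39.1% and 33.5% of its pair with rps27.1 in the mutants, 35.1% in the library labelled UAS:Nr2f5 and 36.0% in the control. rpl7l1, whose counterpart in yeast acts in ribosome assembly, held 6.64% and 5.57% of the sum with rpl7 in the mutants, 5.18% in the library labelled UAS:Nr2f5 and 5.56% in the control.

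**Figure D4:**
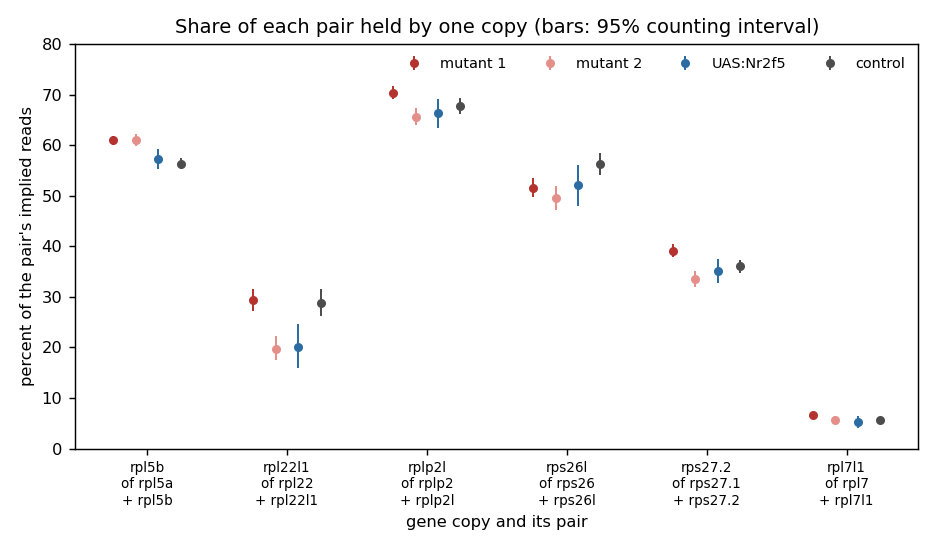
Percent of a pair's implied reads that fall on the first-named copy, for 6 pairs in each of the 4 libraries, with exact 95% counting intervals. rpl5b is higher in both mutants (60.9% and 61.0%) than in the control (56.4%), and rpl22l1 differs between the mutants (29.4% and 19.8%).

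Ribosomal protein genes also stand in the table under other names, and 7 of these were looked at, 4 of them chosen after the table was seen. The Rack1 gene gnb2l1, a scaffold on the small subunit, was at 401 and 427 RPM in the mutants, 327 RPM in the library labelled UAS:Nr2f5 and 427 RPM in the control. RPL29 was at 56.4 and 54.2 RPM in the mutants, 37.6 RPM in the library labelled UAS:Nr2f5 and 38.5 RPM in the control. faua, which encodes Rps30, was at 55.3 and 68.9 RPM in the mutants, 44.4 RPM in the library labelled UAS:Nr2f5 and 52.5 RPM in the control. Against the control 6 of the 7 were higher in the mutants on average (6122 of all 11391 genes tested), with a median of 0.17. limma called 0 of the 7 in either comparison with the mutants (1.04% of all genes against the control and 20.1% against the library labelled UAS:Nr2f5).

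Some of the genes that build ribosomes did pass the test. The list of ribosome biogenesis factors, which process rRNA and assemble subunits in the nucleolus, had 49 tested rows. Against the library labelled UAS:Nr2f5, 16 of them rose in the mutants and 1 fell by limma (34.7%, beside 20.1% of all genes), with a median of 0.66. With rows averaging under 5 RPM left out, 36.3% of all genes were called. The share of this list at that setting is not given, so an excess over genes of similar level is not shown. Against the control, 0 passed and the median was 0.25. Relative to the control, its median in the library labelled UAS:Nr2f5 was −0.43, where that of all genes was −0.11. There 40 of the 49 were lower (57.6% of all genes). Of the 49, 7 were at least 2-fold lower and 1 was 2-fold higher, where 16% of all genes were 2-fold apart in either direction. Whether this list differs from the ribosomal protein genes was not tested.

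Within that list, bop1, of the PeBoW complex of large subunit assembly, was at 11.7 and 13.9 RPM in the mutants, 1.58 RPM in the library labelled UAS:Nr2f5 and 8.78 RPM in the control (limma adjusted p = 0.00686 for mutants against UAS:Nr2f5). Its partners pes and wdr12 also rose in that comparison. pes was at 13.3 and 16.7 RPM in the mutants, 7.31 RPM in the library labelled UAS:Nr2f5 and 12.3 RPM in the control, and wdr12 at 7.68 and 9.88 RPM in the mutants, 3.16 RPM in that library and 7.15 RPM in the control. The rRNA methyltransferase gene nop2 was at 9.60 and 8.60 RPM in the mutants, 1.38 RPM in the library labelled UAS:Nr2f5 and 9.65 RPM in the control (limma adjusted p = 0.00986). Each of these genes was lowest in the library labelled UAS:Nr2f5, as were 44.4% of all genes. They were named for rising against that library, so this order is not a separate result.

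dkc1, the pseudouridine synthase of box H/ACA particles, was at 20.7 and 16.1 RPM in the mutants, 5.33 RPM in the library labelled UAS:Nr2f5 and 13.6 RPM in the control (limma adjusted p = 0.0122 against UAS:Nr2f5). The abundant nucleolar protein genes ncl and npm1a rose as well. ncl was at 97.7 and 121 RPM in the mutants, 58.3 RPM in the library labelled UAS:Nr2f5 and 77.7 RPM in the control, and npm1a at 42.7 and 48.0 RPM in the mutants, 23.9 RPM in that library and 32.8 RPM in the control. The exception was emg1, an rRNA methyltransferase gene, which fell in the mutants against that library, with 2.10 and 2.29 RPM in the mutants, 7.31 RPM in the library labelled UAS:Nr2f5 and 2.54 RPM in the control.

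The biogenesis list also held the row si:ch73-308l14.2, given as TCOF1 in the table of names, a nucleolar factor gene mutated in Treacher Collins syndrome. It was at 4.197 and 4.32 RPM in the mutants, 0.790 RPM in the library labelled UAS:Nr2f5 and 2.64 RPM in the control (limma adjusted p = 0.0337 for mutants against UAS:Nr2f5). Of the 13 tested polymerase I and III genes, 2 rose and 0 fell against the library labelled UAS:Nr2f5 in the mutants (15.4%, no more than the 20.1% of all genes), and 0 passed against the control. polr1c, a subunit shared by polymerases I and III, was at 4.02 and 4.45 RPM in the mutants, 0.889 RPM in the library labelled UAS:Nr2f5 and 2.47 RPM in the control (limma adjusted p = 0.0391). polr1a, the largest subunit of polymerase I, was at 13.6 and 14.7 RPM in the mutants, 6.22 RPM in that library and 8.52 RPM in the control (limma adjusted p = 0.0285). The polymerase genes polr1b and polr1d, also of Treacher Collins syndrome and named after their values were seen, did not pass or were not tested. polr1b, another large subunit of polymerase I, was at 4.77 and 7.28 RPM in the mutants, 3.26 RPM in the library labelled UAS:Nr2f5 and 5.51 RPM in the control (limma adjusted p = 0.208 against UAS:Nr2f5), and polr1d, with a mean under 1 RPM, was not tested.

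Of 17 tested elongation and poly(A) binding genes, 1 rose and 2 fell against the library labelled UAS:Nr2f5 in the mutants (17.6%, beside 20.1% of all genes), and 0 passed against the control. eif5a2 rose, with 218 and 222 RPM in the mutants, 119 RPM in the library labelled UAS:Nr2f5 and 191 RPM in the control. pabpc4, a poly(A) binding protein gene, fell, with 1.47 and 2.56 RPM in the mutants, 34.3 RPM in the library labelled UAS:Nr2f5 and 7.51 RPM in the control. eef2l2, named like elongation factor 2, fell too, with 0.776 and 0.441 RPM in the mutants, 18.4 RPM in that library and 5.64 RPM in the control. These 2 follow the order of the groups in the muscle and epidermal sums given above. The 51 rows of the biogenesis list followed that of the arch crest sum. They summed to 649 and 710 RPM in the mutants, 398 RPM in the library labelled UAS:Nr2f5 and 554 RPM in the control. A link to cell types was not tested for either.

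Of 42 tested initiation factor genes, 4 rose and 0 fell against the library labelled UAS:Nr2f5 in the mutants (9.52%, under the 20.1% of all genes). These were eif4bb, eif5b, eif4h and eif3s6ip. eif5b, which joins the subunits, was at 17.0 and 15.5 RPM in the mutants, 6.81 RPM in the library labelled UAS:Nr2f5 and 13.6 RPM in the control. Against the control, 0 of the 42 passed, and the median was 0.07.

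Mitochondrial ribosomal protein genes, which serve the separate ribosome of that organelle, had medians near 0. Their 65 tested rows had a median of −0.01 for the mutants against the control and 0.04 against the library labelled UAS:Nr2f5, where 4 rose and 2 fell (9.23%, under the 20.1% of all genes), and the 71 rows took 0.134% and 0.129% of all gene values in the mutants, 0.132% in the library labelled UAS:Nr2f5 and 0.133% in the control. Among 17 tested genes of the Myc family and the Tor pathway, 0 passed against the control, and against the library labelled UAS:Nr2f5 mlst8 rose, while the S6 kinase relatives rps6ka1 and rps6ka3b fell (17.6%, beside 20.1% of all genes).

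**Figure D5:**
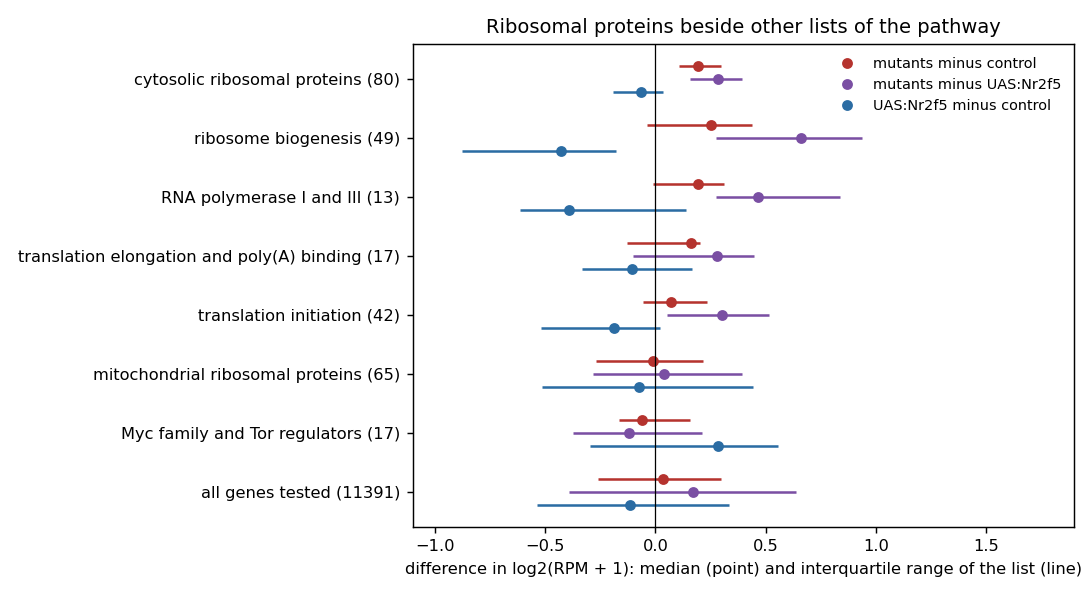
Median difference in log2(RPM + 1) (points) and interquartile range (lines) for the ribosomal proteins, 6 other lists and all genes tested, with the number of tested rows in parentheses, for the mutants minus the control (red), the mutants minus the UAS:Nr2f5 library (purple) and the UAS:Nr2f5 library minus the control (blue). Of the lists drawn, ribosome biogenesis factors have the medians farthest from 0 in the comparisons that use the UAS:Nr2f5 library, at 0.66 and −0.43, while the cytosolic ribosomal proteins stay between −0.06 and 0.28.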

How the data were processed

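The authors deposited 1 table with 4 columns of values, 1 per library, and all columns were assigned. The submitters' processing notes name the tools Partek and TopHat2 and the build GRCz10, with no roles or versions. The table's name calls the values TPM. They were taken as RPM, as deposited by the authors, since each library has 1 step, the value of 1 read, into which 88.4% to 94.0% of its values between 0.5 and 1000 reads divide evenly (tolerance 0.02 read), too few to treat as counts. The design had been set for values of either kind. Values were rounded to implied reads for the intervals only.

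limma 3.58.1 (R 4.3.3; 1 mean per group, eBayes with a trend) was fitted to log2(RPM + 1) of genes averaging 1 RPM or more, with Benjamini-Hochberg adjustment over all genes and a threshold of 0.05, after the code was tested on simulated data. Whether separate clutches gave the mutant libraries is not labelled, so the p-values measure the spread between these samples only. Counting intervals are exact Clopper-Pearson at 95%. The comparisons with the mutants share those libraries, and the comparisons with the control share it. The members and lists were chosen with earlier results of these data known. Named are the 10 genes with the highest mean, the 8 at each end of each comparison (in part), copies of pairs, and list genes that passed. Some genes and 1 list are left out of what is reported here. List symbols absent from the table were matched through the table of gene names, and 4 stayed unmatched. Alternatives were other pseudocounts, filters and scalings, no variance trend and each mutant left out. A median-ratio, a TMM and a crest marker scaling were used, and TMM factors were computed by their published definition.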

Additional observations from a re-analysis of the deposited data

How the results depend on the processing

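No paired analysis was possible because only the mutants are replicated and no pairs are labelled. The median of the ribosomal protein rows for the mutants minus the control was 0.14 to 0.25 with 1 mutant left out, and 0.15 to 0.20 under the other pseudocounts, filters and the median-ratio and TMM scalings. For the mutants minus the library labelled UAS:Nr2f5 it was 0.27 to 0.32 with 1 mutant left out, 0.12 under the median-ratio scaling and 0.17 under TMM. For the library labelled UAS:Nr2f5 minus the control it turned to 0.0738 under the median-ratio scaling and 0.00 (0.00375) under TMM. Under a scaling to the 12 arch crest markers, chosen after seeing the data, the medians were −0.40, −1.2002 and 0.83 in these 3 comparisons, with 3 and 78 rows called by limma in the first and second (8.67% and 71.3% of all genes) and 10 rows 2-fold apart in the third (34.4% of all genes). That factor moved the median of all genes to −0.44, −1.104 and 0.66, so each direction holds per read sequenced, the base of RPM, and not relative to crest markers. Some of those markers differ between the groups themselves.

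limma called 0 ribosomal protein rows under every planned setting that allows a test (1 mutant alone does not), except a mean of at least 5 RPM. There it called 7 of 78 against the library labelled UAS:Nr2f5 in the mutants (8.97%, beside 36.3% of all genes) and 0 against the control (7.8% of all genes). With a pseudocount of 0.1, 1 row was 2-fold apart between the library labelled UAS:Nr2f5 and the control (25.7% of all genes). With the 7 genes under other names added, the share was 8.42% and 8.72% in the mutants, 7.40% in the library labelled UAS:Nr2f5 and 7.83% in the control. Without muscle, epidermal and red blood cell genes in the total it was 7.23% in the library labelled UAS:Nr2f5. Of the values of single genes under an alternative, 1678 kept their direction or side of the threshold, 105 lost a call, 9 gained one and 113 moved. No alternative was left out, apart from the replicate block.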

Other observations

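Mitochondrially encoded genes, which supply core subunits of the respiratory chain, ordered the libraries differently from the cytosolic ribosomal protein genes. Their 13 rows made up 0.931% and 0.756% of all gene values in the mutants, 1.03% in the library labelled UAS:Nr2f5 and 0.687% in the control. limma called 0 of the 12 tested rows in either comparison with the mutants (1.04% of all genes against the control and 20.1% against the library labelled UAS:Nr2f5). Their median in the library labelled UAS:Nr2f5 minus the control was 0.51, where that of all genes was −0.11.

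Other lists of marker genes differed as follows. White blood cell genes (7 rows) summed to 6.70 and 5.34 RPM in the mutants, 33.4 RPM in the library labelled UAS:Nr2f5 and 26.1 RPM in the control. Neuronal genes (8 rows) summed to 49.0 and 49.1 RPM in the mutants, 175 RPM in the library labelled UAS:Nr2f5 and 148 RPM in the control, and glial genes (5 rows) to 8.09 and 9.02 RPM in the mutants and 47.3 RPM in each of the other libraries. Of the glial genes, erbb3b went the other way, at 2.90 and 6.04 RPM in the mutants, 0.987 RPM in the library labelled UAS:Nr2f5 and 0.668 RPM in the control. Endothelial genes (8 rows) summed to 9.28 and 13.6 RPM in the mutants, 31.1 RPM in the library labelled UAS:Nr2f5 and 13.1 RPM in the control, with flt1 listed at 0 in both mutants. Pigment cell genes (8 rows) summed to 6.50 and 6.57 RPM in the mutants, 26.1 RPM in the library labelled UAS:Nr2f5 and 7.28 RPM in the control. Of these, ltk went the other way, at 2.39 and 3.48 RPM in the mutants, 0.0987 RPM in the library labelled UAS:Nr2f5 and 1.27 RPM in the control. Immediate early and heat shock genes (13 rows), a sign of handling, summed to 569 and 787 RPM in the mutants, 731 RPM in the library labelled UAS:Nr2f5 and 649 RPM in the control.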
